A study of Rattus norvegicus with 8 samples.

Results

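The miR-297 and miR-466 repeat family was followed in untreated and antipsychotic-treated cultures of C6, a tumour line of rat glia. Members were the microRNAs (miRNAs) on the array whose name equals or begins with rno-miR-297 or rno-miR-466, with any letter and either arm. The rule uses no measured value, and it gave 7 of the 719 miRNAs on the array: miR-297, miR-466b-1-3p, miR-466b-2-3p, miR-466b-5p, miR-466c-3p, miR-466c-5p and miR-466d. Cells grew in medium with horse and fetal bovine serum and were left untreated or were given a drug each day for 5 days: haloperidol at 2 µg/ml, risperidone at 4 µg/ml, clozapine at 25 µg/ml. Each of the 4 groups had 2 arrays, called biological repeats in the study's design, which gave 8 arrays in all. Cy3-labelled total RNA was hybridised to an Agilent single-colour array, and all 8 arrays lay on 1 slide. Replicate 1 of every group lay in slide row 1 and replicate 2 in slide row 2, so biological repeat and slide row cannot be told apart. Each group had its own slide column, so column and treatment cannot be told apart. An array measures a culture as a whole, so fewer cells with a miRNA and less of it per cell cannot be told apart. The cells are those of a single tumour line, so the values describe that line.

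A miRNA hairpin is cut into a duplex, and either of its strands, named 5p and 3p after its arm of the hairpin, can be loaded into an Argonaute protein. The loaded strand finds target RNAs mainly by pairing through its seed, bases 2 to 8 from its 5′ end. The miR-297 and miR-466 families expanded in rodents from repeat-rich sequence, and in the mouse many copies lie in an intron of Sfmbt2, an imprinted Polycomb-group gene best known for its expression in extraembryonic tissue. Haloperidol is a first-generation antipsychotic, and risperidone and clozapine are second-generation antipsychotics.

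The mature sequences show how the family divides, and they are printed with the seed in capitals because no pair of members has the same seed.
miR-466b-1-3p: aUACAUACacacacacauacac
miR-466b-2-3p: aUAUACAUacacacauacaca
miR-466c-3p: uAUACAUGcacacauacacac
miR-466b-5p: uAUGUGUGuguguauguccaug
miR-466c-5p: uGUGAUGUguguauguacaug
miR-466d: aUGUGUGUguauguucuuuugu
miR-297: aUGUAUGUgugcauguaugcaug
All sequences are from RefSeq on the GRCr8 build, written 5′ to 3′. The 7 members were found there, 6 by their miRNA name and miR-466b-1-3p by the gene symbol Mir466b-1 and its 3p arm, which RefSeq lists as rno-miR-466b-3p. The 3 members of the 3p arms are rich in AC and AU steps, and each holds the run ACACAC. The other 4 members, miR-297, miR-466b-5p, miR-466c-5p and miR-466d, are rich in GU steps, and each holds UGUGUG. Read along the mature strand alone, UGUGUG occurs in 1.71% and ACACAC in 1.4% of the 642 miRNAs on the array with a RefSeq sequence, members included. No member had its exact 7-base seed in common with any of the other miRNAs on the array that have a RefSeq sequence, and no seed was shared inside the family. The longest run in common was 13 bases between miR-466b-1-3p and miR-466b-2-3p, 12 between miR-466b-2-3p and miR-466c-3p, 11 between miR-466b-1-3p and miR-466c-3p, and 13 between miR-466b-5p and miR-466d. The 2 arms of the Mir466b-2 hairpin, miR-466b-2-3p and miR-466b-5p, had no run longer than 3 bases in common. GC content was 28.6% to 40.9% for the members against a median of 47.6% for the 642 miRNAs.

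The 4 miR-466 hairpins lie on the minus strand of chromosome 17 within 32.5 kb, inside the span of Sfmbt2, which is read from the same strand. In GRCr8 the mature miR-466b-1-3p is at chr17:72945512-72945533, miR-466b-2-3p at chr17:72942475-72942495, miR-466c-3p at chr17:72927610-72927630, miR-466c-5p at chr17:72927649-72927669 and miR-466d at chr17:72913060-72913081. The sequence of miR-466b-5p is encoded by 2 hairpins, Mir466b-1 (chr17:72945547-72945568) and Mir466b-2 (chr17:72942513-72942534), so its signal cannot be assigned to either. miR-297 lies apart from them on the minus strand of chromosome 10, at chr10:98715721-98715743, inside the span of the long non-coding RNA gene LOC102549836. The exon and intron limits of these genes were not used here.

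The number of miRNAs detected per array was 193 to 254, lowest on risperidone replicate 2 (193) and clozapine replicate 2 (203), whose 75th percentiles of signal were also the lowest, at 388 and 689 against 796 to 1480 on the others. The glial label of the cells was set against lists of marker miRNAs. They do not settle it, since miRNAs listed for other cell types were detected too. All 8 miRNAs listed for astroglia and glioma were detected on all 8 arrays. The 2 oligodendrocyte miRNAs, miR-219-5p and miR-338-3p, were also detected on all 8. Of 4 leukocyte miRNAs none was detected on all arrays, with miR-150-5p on 5, miR-223-3p on 4, miR-142-3p on 3 and miR-142-5p on 0. The erythrocyte miR-451-5p was detected on 2 arrays, and miR-144-3p and miR-122-5p of the same erythrocyte and serum list on 0. The muscle miR-206-3p was detected on 5, and miR-1-3p and miR-133a-3p of the muscle list on 0. Of 7 miRNAs linked to neurons 4 were detected on all arrays, and the defining miR-124-3p was detected on 0. The miR-200 family with miR-141 and miR-429, known from epithelium (0 of 5 detected), and miR-291a-3p, miR-292-3p, miR-293-3p, miR-294 and miR-295-3p of embryonic stem cells, were detected on no array, while miR-290 of the same stem-cell cluster was detected on all 8.

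Of the 7 members, 4 were detected in C6 cells and 3 were not detected on any array. miR-466b-1-3p, miR-466b-2-3p and miR-466b-5p, all of the miR-466b hairpins, were detected on all 8 arrays, and miR-466c-3p on 5. miR-297, miR-466c-5p and miR-466d were detected on 0 of 8 arrays, with 10 probes in all and no probe whose spots were mostly well above background on any array. Their background-subtracted signal, summed over the probes of each miRNA, ran from -21.8 to -12.9 units for miR-297, from -22.4 to -12.03 for miR-466c-5p and from -2.34 to 8.28 for miR-466d. These values lie around or below the local background, so the arrays give no level for the 3 miRNAs in any group. Both arms of Mir466c are on the array, and in this hairpin the 3p arm was detected where the 5p arm was not.

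**Figure D1:**
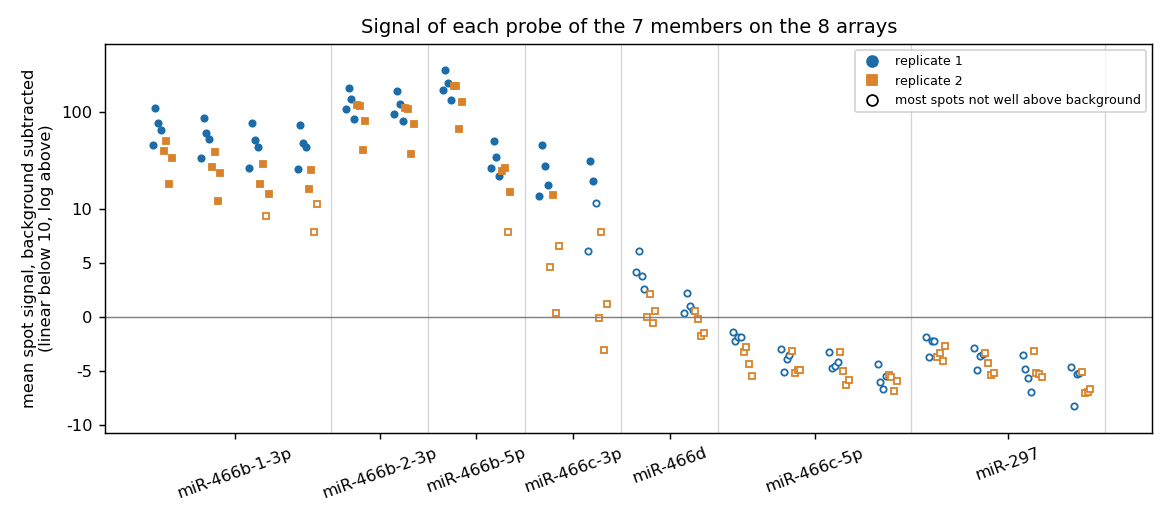
Mean background-subtracted spot signal (vertical axis, linear below 10 and logarithmic above) of each probe of the 7 members on the 8 arrays, with circles for replicate 1, squares for replicate 2 and open symbols where most spots were not well above background. The probes of miR-466b-1-3p, miR-466b-2-3p and miR-466b-5p carry most of the signal, those of miR-466c-3p straddle the limit of detection, and those of miR-466d, miR-466c-5p and miR-297 are open symbols on all 8 arrays.

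Levels are given as log2 of the summed probe signal divided by the array's 75th percentile, so that 0 is that percentile and 1 unit is a factor of 2. Values under -6.22, the 5th percentile of scaled detected values, were set to that floor. Levels of different miRNAs are not set against each other, since probes differ in brightness for equal amounts of RNA.

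miR-466b-2-3p, the 3p arm of Mir466b-2, hardly moved between arrays. In order of replicate number, its log2 level was -2.37 and -2.07 for control, -2.13 and -2.11 for haloperidol, -2.09 and -2.32 for risperidone, and -2.27 and -2.15 for clozapine. The 2 control arrays held both the lowest and the highest of these values, and the arrays of every drug fell between them. The group means in rising order were -2.22 ± 0.21 in controls, -2.21 ± 0.08 with clozapine, -2.20 ± 0.16 with risperidone and -2.12 ± 0.01 with haloperidol (SD, n = 2 each), and no neighbours in this order differed beyond their spread. The SD over the 8 arrays was 0.11. Of 34 other miRNAs detected on all arrays with a mean within 0.5 log2 units, 2 had a smaller SD, and the median SD was 0.28.

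miR-466b-5p, the arm encoded by both miR-466b hairpins, was as steady. Control arrays stood at -2.42 and -2.20, haloperidol arrays at -2.20 and -2.19, risperidone arrays at -2.22 and -2.38, and clozapine arrays at -2.36 and -2.29. The lowest value was again on control replicate 1, and both haloperidol arrays lay above both control arrays, by a margin of less than 0.01 between the nearest. The means were -2.33 ± 0.06 with clozapine, -2.31 ± 0.16 in controls, -2.30 ± 0.12 with risperidone and -2.20 ± 0.01 with haloperidol (SD, n = 2 each), and the 3 lower means lay within their spread of each other. One of its probes carried most of the signal (66.5 to 273 units), and the other, at 7.83 to 49.7 units, was well above background on 7 arrays.

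The 2 arms moved together. On a single array the difference between miR-466b-2-3p and miR-466b-5p is free of the scaling between arrays, and only its change from array to array is read here. That difference was 0.06 to 0.14 on the 8 arrays, with an SD of 0.03. Among the 17020 pairs of the 185 miRNAs detected on all arrays the median SD was 0.47, and 1 pair had a smaller SD, miR-20a-5p with miR-20b-5p, which have a run of 13 bases in common against 3 for the miR-466b arms. For 29 other hairpins with both arms detected on all arrays, the SD of the difference between arms was 0.13 (miR-99b) to 1.43, with a median of 0.51. Each arm varied little by itself, with SDs of 0.113 for miR-466b-2-3p and 0.095 for miR-466b-5p over the 8 arrays. An SD of their difference below both medians was thus fixed in advance. The pair was not set against pairs of miRNAs as steady. The closeness of the pair was noticed in the values, so it is given as a description with no test.

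miR-466b-1-3p, the 3p arm of the neighbouring hairpin Mir466b-1, varied more. Control arrays had log2 levels of -2.98 and -3.25, haloperidol arrays -2.10 and -2.75, risperidone arrays -2.20 and -3.02, and clozapine arrays -1.95 and -3.07. Both haloperidol arrays lay above both control arrays, and the arrays of the other drugs overlapped with control. Replicate 1 was above replicate 2 in every group, by 0.27 for control, 0.65 for haloperidol, 0.83 for risperidone and 1.12 for clozapine. The means were -3.12 ± 0.19 for control, -2.61 ± 0.58 for risperidone, -2.51 ± 0.79 for clozapine and -2.42 ± 0.46 for haloperidol (SD, n = 2 each), and the 3 drugs lay within their spread of each other.

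**Figure D2:**
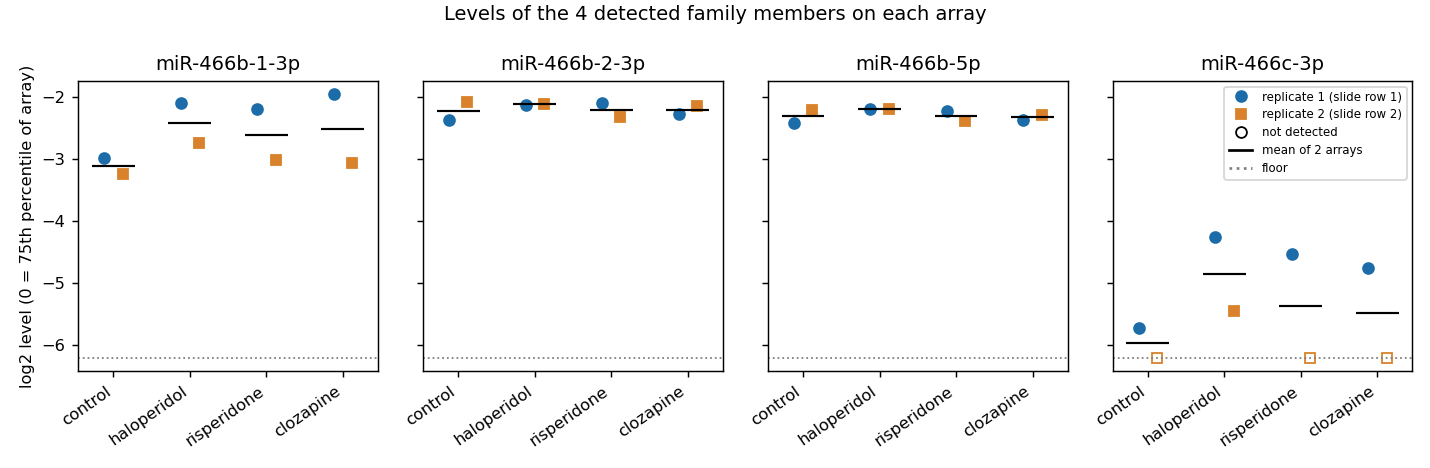
Log2 level (vertical axis, 0 is the array's 75th percentile) of the 4 detected members in the 4 groups, with a circle for replicate 1, a square for replicate 2, a bar for the mean of 2 arrays and open symbols where a member was not detected. miR-466b-2-3p and miR-466b-5p stay between -2.42 and -2.07 on all arrays, while replicate 1 lies above replicate 2 in every group for miR-466b-1-3p and miR-466c-3p.

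The difference between replicates of miR-466b-1-3p, also the difference between slide rows, averaged 0.72 over the 4 groups, a 1.64-fold higher level in row 1. It is called a row difference here, though biological repeat and slide row cannot be told apart. Counted from the most positive value down, the row difference of miR-466b-1-3p ranked 14th of the 243 miRNAs tested. Their median was 0.10, and 30.9% of them were higher in row 1 in all 4 groups. This rank leaves out larger differences in the other direction, such as -1.29 for miR-483-5p. Of 24 other miRNAs detected on all arrays with a mean within 0.5 log2 units, 1 had a larger row difference. For miR-466b-2-3p and miR-466b-5p the row difference was -0.05 and -0.04. The 4 probes of miR-466b-1-3p had row differences of 0.49, 0.63, 0.90 and 1.09 from the brightest (mean signal 55.0 units) to the dimmest (31.5 units). The probes with 0.90 and 1.09 were well above background on 7 and 6 arrays. Both fell short on risperidone replicate 2, and the dimmest also on clozapine replicate 2, all in slide row 2. The dim probe of miR-466b-5p (25.8 units) had a row difference of 0.30 and its bright probe (167 units) -0.09. The 2 probes of miR-466b-2-3p (107 and 98.4 units) had -0.05 and -0.06. Row differences were thus larger on the dimmer probes of miR-466b-1-3p and miR-466b-5p, and not of miR-466b-2-3p, and the part of probe brightness in them was not tested.

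**Figure D3:**
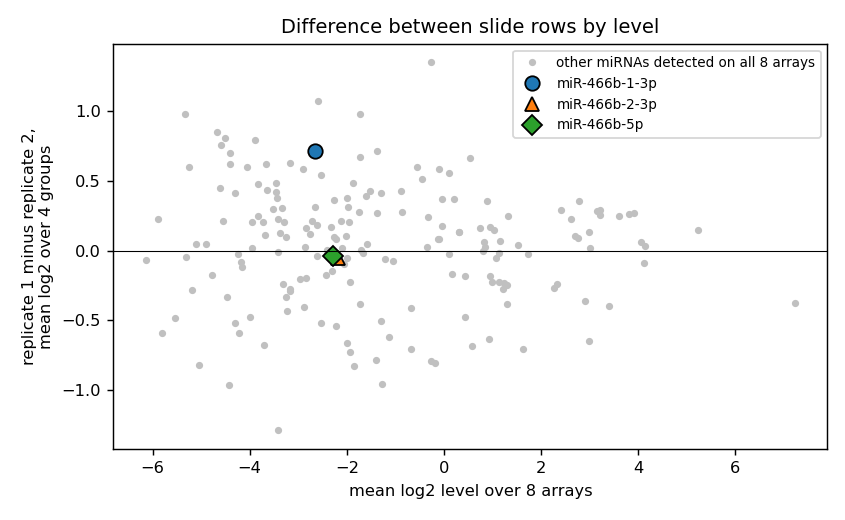
Mean log2 difference between replicate 1 and replicate 2 over the 4 groups (vertical axis) against mean log2 level (horizontal axis) for the 185 miRNAs detected on all arrays, with the 3 miR-466b members marked. miR-466b-1-3p lies at 0.72, and miR-466b-2-3p and miR-466b-5p lie near 0.

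Set against its neighbour, miR-466b-1-3p minus miR-466b-2-3p was -0.62 and -1.18 for control, 0.03 and -0.64 for haloperidol, -0.11 and -0.70 for risperidone, and 0.31 and -0.92 for clozapine. Replicate 2 of each drug fell under control replicate 1, so every drug overlapped with control. In each slide row the 3 drug arrays lay above the control array of that row, and that 1 control array serves all 3 drugs. How many other pairs of miRNAs show this order was not counted. The mean exceeded that of control by 0.59 for haloperidol, 0.49 for risperidone and 0.59 for clozapine. The SD over all 8 arrays was 0.51, which also holds the differences between groups and between replicates. An exact permutation test of 2 arrays against 2 cannot give a p below 0.333, so none was used on these differences.

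**Figure D4:**
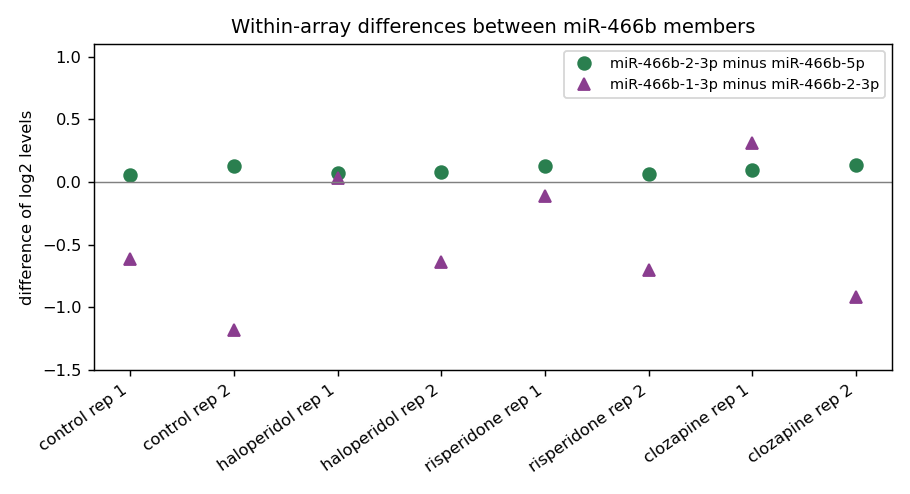
Difference of log2 levels within each of the 8 arrays (vertical axis) for miR-466b-2-3p minus miR-466b-5p (circles) and miR-466b-1-3p minus miR-466b-2-3p (triangles). The first stays between 0.06 and 0.14, and the second runs from -1.18 on control replicate 2 to 0.31 on clozapine replicate 1.

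miR-466c-3p, from the hairpin between miR-466d and the miR-466b pair, was close to the limit of detection. It was detected on both haloperidol arrays (-4.26 and -5.46), and on replicate 1 of control (-5.73), risperidone (-4.53) and clozapine (-4.76). On replicate 2 of those 3 groups it was not detected and stood at the floor of -6.22. The summed signal was 19.7 and 4.57 units for control, 76.95 and 21.8 for haloperidol, 47.3 and -2.77 for risperidone, and 29.35 and 7.82 for clozapine. Haloperidol arrays were the highest of each replicate number, and replicate 1 exceeded replicate 2 in every group. Since it passed the detection filter through the haloperidol group alone, a higher value there is built into its being tested, and it is given as a description.

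Among the members, the levels of miR-466b-1-3p and miR-466c-3p ran in parallel over the 8 arrays, with Pearson's r of 0.95 and Spearman's rho of 0.90 (r 0.97 without the 2 arrays farthest from the median). The arms miR-466b-2-3p and miR-466b-5p had r of 0.97 and rho of 0.81 (0.92 without 2 arrays). miR-466b-1-3p had r of 0.10 with miR-466b-2-3p and 0.14 with miR-466b-5p. The arrays share a slide and a scaling, and the median r over all pairs of miRNAs detected on all arrays was 0.07. The first of these correlations rests in part on 3 arrays where miR-466c-3p was set to the same floor, and both its miRNAs were higher in row 1 in all 4 groups. As given above, miR-466b-1-3p has a run of 13 bases in common with miR-466b-2-3p and 11 with miR-466c-3p.

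Outside the family, the miRNAs most like each member were taken from the 182 others detected on all arrays. For miR-466b-1-3p they were miR-140-5p (r 0.92, rho 0.76, n = 8 arrays), miR-140-3p (0.81, 0.81) and miR-6216 (0.79, 0.83), each of which was also higher in row 1, by 0.56 to 0.66 on average. For miR-466b-2-3p they were miR-29a-3p (0.98, 0.83), miR-542-5p (0.95, 0.90) and miR-29c-3p (0.94, 0.69), and for miR-466b-5p miR-29a-3p (0.97, 0.93), miR-29c-3p (0.94, 0.69) and miR-219-5p (0.90, 0.79). The group means of miR-29a-3p were 4.04 for control, 4.25 for haloperidol, 4.07 for risperidone and 4.09 for clozapine. Haloperidol had the highest mean, as for miR-466b-2-3p and miR-466b-5p. All these miRNAs were picked for their likeness over the same 8 arrays. A shared order of groups or rows thus follows in part from the choice.

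Haloperidol against control asked whether a first-generation antipsychotic changed the family. miR-466b-1-3p was 1.62-fold higher on average (log2 0.70, SE 0.49, 95% interval -0.52 to 1.91), with values of 0.89 in slide row 1 and 0.50 in row 2. Without haloperidol replicate 1 it was 0.37 and without haloperidol replicate 2 it was 1.02, and with normexp background correction it was 0.19. For miR-466c-3p no single size can be given, because control replicate 2 was undetected and set to the floor. Its log2 difference was 1.11 with this floor, 1.86 with a lower floor (the 1st percentile) and 0.09 with normexp, and it ran from 0.51 to 1.71 when 1 array was left out. miR-466b-2-3p differed by 0.10 (SE 0.16, interval -0.30 to 0.51) and miR-466b-5p by 0.12 (SE 0.14, interval -0.23 to 0.47). None passed the test: limma's adjusted p was 0.588 for miR-466b-1-3p, 0.747 for miR-466b-2-3p and 0.693 for miR-466b-5p, and miR-466c-3p did not pass either. limma called 0 of 243 miRNAs (0%) at an adjusted p under 0.05, and 16 (6.58%) had an unadjusted p under 0.05, with no member among them. Both haloperidol arrays lay above both control arrays for miR-466b-1-3p, miR-466b-5p and miR-466c-3p, where 11.5% of the 243 did so. Of these 3, miR-466c-3p was tested through its haloperidol values and miR-466b-5p cleared the controls by less than 0.01. For 0 members were both haloperidol arrays below both controls, against 32.1% of the 243. Within both slide rows haloperidol was above control for miR-466b-1-3p, miR-466b-5p and miR-466c-3p, against 20.2% of the 243.

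With slide row, which is also replicate number, as a block in the fit the differences were unchanged and their errors smaller. limma then gave miR-466b-1-3p an unadjusted p of 0.0318 (adjusted 0.229), in a fit where 43 of 243 miRNAs (17.7%) had an unadjusted p under 0.05. No member passed the adjusted threshold. No p is read for miR-466c-3p, which was tested through its haloperidol values.

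Risperidone against control asked the same of a second-generation drug. miR-466b-1-3p was 1.42-fold higher on average (log2 0.51, SE 0.49, 95% interval -0.71 to 1.73), at 0.79 in row 1 and 0.23 in row 2. Without risperidone replicate 1 that value was 0.10 and without risperidone replicate 2 it was 0.92, so the size rests on which array is kept. miR-466c-3p had 0.60 with the floor used here, with 1.199 in row 1 and both arrays at the floor in row 2. miR-466b-2-3p had 0.02 (SE 0.16, interval -0.39 to 0.42) and miR-466b-5p 0.01 (SE 0.14, interval -0.34 to 0.36). The row values of these 2 arms had opposite signs, 0.28 and -0.25 for miR-466b-2-3p and 0.21 and -0.18 for miR-466b-5p. limma called 0 of 243 miRNAs (0%), and 21 (8.64%) had an unadjusted p under 0.05, with adjusted p of 0.560 to 0.970 for the members. For 0 members were both risperidone arrays above both controls, against 7% of the 243, and for 0 were both below, against 32.9%. Within both slide rows risperidone was above control for miR-466b-1-3p alone of the members, against 13.2% of the 243. With the row block limma's p for miR-466b-1-3p was 0.0806 (adjusted 0.218), where 60 of 243 (24.7%) had an unadjusted p under 0.05.

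Clozapine was compared with control in the same way. miR-466b-1-3p was 1.52-fold higher on average (log2 0.60, SE 0.49, 95% interval -0.61 to 1.82), which was 1.03 in row 1, a 2.04-fold higher level, and 0.18 in row 2. It was 0.05 without clozapine replicate 1 and 1.16 without clozapine replicate 2. miR-466c-3p had 0.48 with the floor used here and 1.11 with the lower floor, with 0.97 in row 1 and both arrays at the floor in row 2. miR-466b-2-3p had 0.01 (SE 0.16, interval -0.39 to 0.42) and miR-466b-5p -0.01 (SE 0.14, interval -0.37 to 0.34). limma called 0 of 243 miRNAs (0%), and 36 (14.8%) had an unadjusted p under 0.05, none of them a member; the members' adjusted p was 0.589 to 0.986. For 0 members were both clozapine arrays above both controls, against 5.35% of the 243, and for 0 were both below, against 33.7%. Within both slide rows clozapine was above control for miR-466b-1-3p alone of the members, against 19.3% of the 243. With the row block limma's unadjusted p for miR-466b-1-3p was 0.0491 (adjusted 0.182), where 66 of 243 (27.2%) had an unadjusted p under 0.05.

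**Figure D5:**
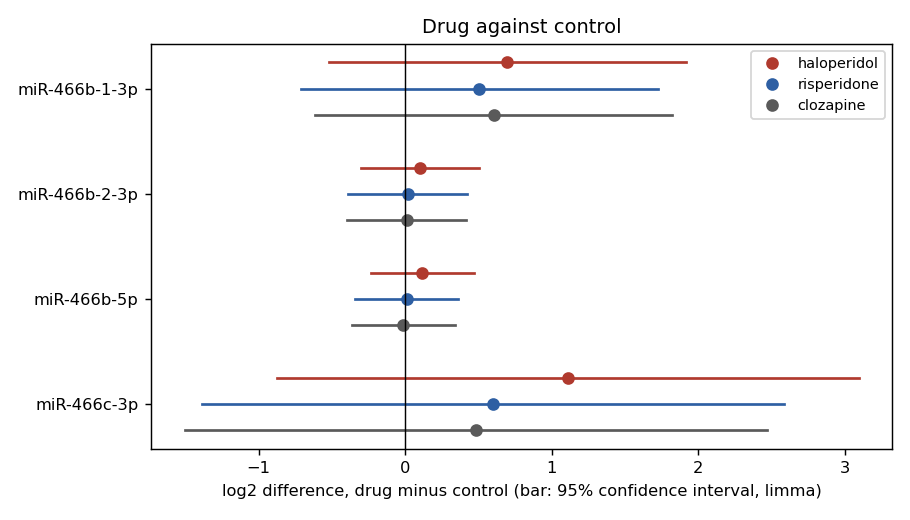
Log2 difference of each drug against control (horizontal axis, points) with its 95% confidence interval from limma (bars) for the 4 tested members. All 12 intervals include 0, and those of miR-466b-2-3p and miR-466b-5p lie within -0.39 to 0.51.

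The 3 comparisons use the same 2 control arrays, so their values are not independent of each other. The intervals of the steady pair, miR-466b-2-3p and miR-466b-5p, spanned -0.39 to 0.51 on the log2 scale. Those of miR-466b-1-3p spanned -0.71 to 1.91 and those of miR-466c-3p, which are set in part by the floor, -1.502 to 3.095, so they hold no change as well as larger changes in both directions. Over the 4 groups together, limma's F test gave an unadjusted p of 0.532 for miR-466b-1-3p, 0.916 for miR-466b-2-3p and 0.780 for miR-466b-5p. It called 0 of 243 miRNAs (0%), and 8 (3.29%) had an unadjusted p under 0.05. The F test is not read for miR-466c-3p, which was tested through its haloperidol values and stood at the floor on 3 arrays. The median log2 difference of the 3 members detected on all arrays was 0.12 for haloperidol, 0.02 for risperidone and 0.01 for clozapine. The 185 miRNAs detected on all arrays had -0.12, -0.12 and -0.14, and all 243 tested had -0.15, -0.15 and -0.17. Differences above 0 were found for 37.9%, 38.3% and 31.7% of all miRNAs tested.

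Other miRNAs with repeat-like sequence were set beside the family. Of 15 non-members whose mature sequence holds UGUGUG or ACACAC, or an alternation of U and A over 6 bases, 5 were detected on at least 1 array, 2 on all 8, and 0 of the 3 tested passed the threshold in either direction for any drug. let-7b-5p, a growth-restraining let-7 miRNA that holds UGUGUG, had differences of -0.34, -0.18 and -0.38 with haloperidol, risperidone and clozapine. miR-362-3p, which holds ACACAC, had 1.03, 0.71 and 0.72, and the muscle miRNA miR-206-3p, detected on 5 arrays, had -1.07, -1.47 and -1.21. The repeat-like miRNAs thus had differences on both sides of 0. Of 15 miRNAs named miR-290 to miR-295 or miR-302, known from stem cells, or miR-322 or miR-503, linked to trophoblast, 4 were detected, all on 8 arrays: miR-290, miR-322-3p, miR-322-5p and miR-503-5p. None of the 4 passed for any drug. With haloperidol, risperidone and clozapine, miR-290 had differences of 1.42, 1.78 and 0.99, and miR-322-3p had -0.33, -0.47 and -0.20. The other two lay above 0, miR-503-5p at 0.60, 0.57 and 0.33 and miR-322-5p at 0.25, 0.18 and 0.22.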

How the data were processed

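Per the file headers, the authors scanned each array in 1 colour and processed it with Agilent Feature Extraction 10.7.3.1. The deposited spot values are of unit intensity on a linear scale, with no scaling across arrays, and come with flags of unit other (0 or 1) for detection, outlier spots and spots well above background. Each array held 14380 non-control spots for 1730 probes of 719 miRNAs, and 0 spots were saturated. Outlier spots were dropped, the rest averaged to probes and the probes summed to a miRNA. Each sum was scaled to the 75th percentile of 291 probes that were above background on every array, then floored and logged. Testing required detection on both arrays of some group (243 tested, 476 not). limma 3.58.1 under R 4.3.3 fitted the 4 groups jointly (lmFit, eBayes; 4 residual and 5.43 total degrees of freedom), two-sided, with Benjamini-Hochberg adjustment over the 243 and a threshold of 0.05. The fit was tested on simulated data. A floored value hides spread. Every member is named, as are the 3 most correlated non-members of each member detected on all arrays. The members and lists were chosen with earlier results of these data known; the names sought under miR-467 and miR-669 had no entry to analyse. The number of arrays limits the precision (median SE 0.29). P-values measure the spread between cultures and their arrays, which in the fit without a row block also holds any difference between slide rows. Alternatives changed the scaling, background (normexp, offset 50, on spot and background medians), probe summary, filter, floor, arrays, block and variance model.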

Additional observations from a re-analysis of the deposited data

How the results depend on the processing

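No member passed limma's adjusted threshold under any of the 21 alternatives (lowest adjusted p 0.182 with the replicate block, lowest unadjusted 0.00677 with the percentile over all probes, both for miR-466b-1-3p with clozapine), and 224 of 249 member values kept their direction. Most turns were in miR-466b-2-3p and miR-466b-5p, whose differences lie near 0; the causes were not tested. Without scaling risperidone turned to -0.11 for miR-466b-1-3p, -0.60 for miR-466b-2-3p and -0.61 for miR-466b-5p, and clozapine to -0.42 for miR-466b-2-3p, where the median of all miRNAs was -0.65 and -0.55. Clozapine turned miR-466b-5p to 0.63 with the percentile over all probes and to 0.42 with normexp. The median of all miRNAs with clozapine was then 0.42 and 0.55. With risperidone it was 0.35 and 0.37 under these 2 settings. Quantile normalization gave 0.00 for miR-466b-5p with haloperidol and -0.009 and -0.049 for miR-466b-2-3p and miR-466b-5p with risperidone. The deposited gene-level signal gave -0.001 and -0.007 for these with risperidone and -0.018 for miR-466b-2-3p with clozapine, and the brightest probe -0.002 for the latter. Without control replicate 1 miR-466b-2-3p turned to -0.047, -0.13 and -0.14 with haloperidol, risperidone and clozapine and miR-466b-5p to -0.10 with risperidone. Without risperidone replicate 1 miR-466b-2-3p, miR-466b-5p and miR-466c-3p were at -0.098, -0.071 and -0.25 (the last at 1.445 without risperidone replicate 2). Without clozapine replicate 1 miR-466b-5p was at 0.026 and miR-466c-3p at -0.25 (1.211 without clozapine replicate 2). Without control replicate 2 clozapine gave 0.10 for miR-466b-5p, and without clozapine replicate 2 -0.046 for miR-466b-2-3p. Sizes also moved by over 1.5 times with no turn. For miR-466b-1-3p, normexp gave 0.19 with haloperidol, the percentile over all probes 1.09 and 1.25 with risperidone and clozapine, no scaling 0.18 with clozapine, and 1 array left out 0.37 to 1.02, 0.095 to 0.92 and 0.046 to 1.16. With the percentile over all probes, limma's unadjusted p for it was 0.0397, 0.0124 and 0.00677 with haloperidol, risperidone and clozapine. Under that setting 3, 12 and 11 of 243 miRNAs had an unadjusted p under 0.05. For miR-466c-3p, the lower floor gave 1.86 and 1.11 with haloperidol and clozapine, normexp 0.087 and 0.94, and with clozapine the percentile over all probes 0.94, the deposited gene-level signal 0.74 and no scaling 0.29.

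The median over the 4 tested members was 0.41, 0.26 and 0.25 with haloperidol, risperidone and clozapine; it includes miR-466c-3p, tested through its haloperidol values, and supports nothing. It was 0.60 and 0.80 with the percentile over all probes for the latter 2, 0.66, -0.36 and -0.12 without scaling, 0.058 (haloperidol) and 0.62 (clozapine) with normexp, 0.10, 0.011 and 0.00 over all 7 members without a filter, and 0.12, 0.017 and 0.012 among the 3 members detected on all arrays. These settings moved all miRNAs too. With the percentile over all probes their median was 0.35 and 0.42 for risperidone and clozapine. It was 0.09, -0.65 and -0.55 without scaling, and -0.11 (haloperidol) and 0.55 (clozapine) with normexp. Leaving out 1 array gave member medians of 0.245 to 0.57, -0.084 to 0.525 and 0.036 to 0.56. Leaving out both dim arrays, risperidone replicate 2 and clozapine replicate 2, chosen after seeing the data, gave 0.525 and 0.56 for risperidone and clozapine, and -0.046 for miR-466b-2-3p with clozapine.

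With the replicate block limma called 0, 1 and 2 miRNAs, none a member. Replicates share a number and a slide row, and the replicate differences of the 4 groups correlated at 0.16 to 0.71 over the 243 miRNAs. Leaving out 1 array gave 0 to 5, 0 to 6 and 0 to 7 calls, the highest each without control replicate 2, and 0 for the F test. Over all alternatives the number at an unadjusted p under 0.05 was 1 to 60, 0 to 60 and 6 to 66.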
